A study of Mus musculus with 20 samples.

Results

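The ATF6 family and the proteins that activate it or bind DNA with it were described here through 10 genes, which were taken by gene symbol from the deposited tables of bulk RNA-Seq of mouse retina. They are *Atf6* (NCBI gene 226641), *Atf6b* (12915), the proteases *Mbtps1* (56453) and *Mbtps2* (270669), the related factors *Creb3* (12913), *Creb3l1* (26427) and *Creb3l2* (208647), and the NF-Y subunits *Nfya* (18044), *Nfyb* (18045) and *Nfyc* (18046). All 10 were among the 19368 genes of the P17 tables and the 19102 genes of the P30 tables, and all 10 passed the filter on low values in both. Whole retinas gave 20 libraries, 5 in each of 4 groups. In oxygen-induced retinopathy (OIR), P7 pups of both sexes were kept in 75% oxygen until P12, which halts vessel growth, and retinas were collected at P17, after the return to room air. *Atf6*+/+ OIR and *Atf6*-/- OIR mice both had this exposure. The *Atf6*-/- allele carries a premature stop codon in exon IV, according to the study, and is present in every cell of the animal. The other 2 groups were wild-type mice that received 1 µL into the vitreous of both eyes at P30, either 10 µM Ceapin-A7 or saline (labelled PBS), and retinas were collected 24 h later. The labels give both solutions the same range of solvent, whereas the study's methods give the compound a lower DMSO concentration than the saline, so an effect of solvent and one of compound cannot be told apart. Each experiment has 1 control group, and no group of P17 mice kept in room air was analysed here. Nothing says whether the 5 retinas of a group came from 5 animals, so p-values measure the spread between these libraries.

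ATF6 is a membrane protein of the endoplasmic reticulum (ER) and 1 of 3 sensors of the unfolded protein response (UPR). When unfolded proteins build up, it moves to the Golgi, where the site-1 protease (encoded by *Mbtps1*) and then the site-2 protease (encoded by *Mbtps2*) cut it and release a factor that enters the nucleus. There it acts with the trimer NF-Y at the ER stress response element (ERSE), where NF-Y binds the CCAAT end and ATF6 the CCACG end, and it raises ER chaperones and degradation genes. ATF6B and the CREB3 proteins are cut by the same proteases. Ceapin-A7 holds ATF6 in the ER, so that neither protease reaches it. Both the cut and this block act on the protein, and RNA-Seq does not measure either.

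The elements through which this pathway reads out are shown first, because the target genes below are described by whether they hold one. RefSeq promoter windows of GRCm38.p6, from 250 bases before to 50 bases after each annotated start, were searched on both strands for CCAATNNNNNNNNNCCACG (ERSE), which contains the motif CCAAT, and for ATTGGNCCACG (ERSE-II), which contains CCAAT on its other strand. Each line gives the gene, its place and strand and the element 5′ to 3′, with the NF-Y end and the ATF6 end in capitals.
*Hspa5*, chr2:34772025-34772043, plus strand: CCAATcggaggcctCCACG
*Hsp90b1*, chr10:86705638-86705656, minus strand: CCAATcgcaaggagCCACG
*Hsp90b1*, chr10:86705533-86705551, plus strand: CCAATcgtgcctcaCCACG
*Calr*, chr8:84847075-84847093, plus strand: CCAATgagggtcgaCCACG
*Canx*, chr11:50325800-50325818, minus strand: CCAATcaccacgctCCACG
*Pdia6*, chr12:17266491-17266509, plus strand: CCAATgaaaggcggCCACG
*Creld2*, chr15:88819520-88819538, minus strand: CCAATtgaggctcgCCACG
*Dnajc3*, chr14:118937827-118937845, plus strand: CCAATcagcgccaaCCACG
*Syvn1*, chr19:6046532-6046550, plus strand: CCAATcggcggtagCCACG
*Derl3*, chr10:75893242-75893260, minus strand: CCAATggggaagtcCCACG
Of 18 ATF6 target genes, 16 had a promoter window, and 9 of these held an ERSE, against 37 of all 27025 genes (0.137%). *Herpud1* and *Dnajb11* held an ERSE-II, which 12 of all genes did (0.0444%). These genes are on the list because they are known as ATF6 targets, so their share says nothing about these libraries. Of the 10 genes of the family, 8 had a window, *Atf6* and *Creb3l1* having no entry. None of the 8 held an ERSE or an ERSE-II by these letters. The motif CCAAT alone, which 41.1% of all genes hold, was found at *Atf6b*, *Creb3l2*, *Nfya* and *Nfyc*, the last with 5 copies at 1 of its 3 annotated starts.

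Of the libraries as a whole, the predicted gene *Gm29733* (NCBI gene 101055854), annotated inside *Atf6*, followed the genotype labels, with 3.12 to 6.89 FPKM in the *Atf6*-/- libraries and at most 0.24 FPKM in the other 15. It was chosen to look at the genotype with its values already known, so it is not an independent test of the labels. FPKM are fragments scaled to the length of the transcript and to all mapped fragments of the library, and they hold no counts, so no counting interval was computed. Between 11.7% and 12.6% of genes were listed at 0 in the OIR libraries and between 12.1% and 13.7% in the P30 libraries, the highest in Ceapin-A7 replicate 3. Rod photoreceptor markers, the test of the labelled tissue, summed to between 14760 and 22190 FPKM over 8 genes in every library. Some libraries stood apart. On the first principal component of OIR (41.9% of the variance), *Atf6*+/+ replicate 4 lay with 4 of the *Atf6*-/- libraries and *Atf6*-/- replicate 5 with 4 of the *Atf6*+/+ libraries, although *Gm29733* was at 0 in the first and at 3.12 FPKM in the second. The same 2 libraries were exchanged in the correlation of their deviations with the GC content of the transcript. At P30, PBS replicates 4 and 5 had the lowest rod marker sums, 15750 and 14760 FPKM, against 19960 to 22190 FPKM in the other 8 libraries. The fits were repeated without the pair of each experiment, a choice made after seeing the data, and values without them are given where they differ in a call or in size. In whole retina, fewer cells of a type and less RNA per cell cannot be told apart.

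*Atf6* RNA was present at nearly the same level in every group, the *Atf6*-/- mice included. *Atf6* was at 14.75, 16.05, 14.64, 14.69 and 14.61 FPKM in the *Atf6*+/+ OIR libraries and at 15.59, 13.61, 16.83, 16.29 and 13.57 FPKM in the *Atf6*-/- OIR libraries. The 2 groups overlapped, and the *Atf6*-/- libraries held both the highest and the lowest values. With a log2 fold change of 0.0347 (limma, 95% confidence interval −0.122 to 0.191, adjusted p = 0.827), the data allow a change from −8.08% to 14.1%. A premature stop codon can leave the RNA in place, so the summed level of this gene does not check the genotype. After injection, *Atf6* was at 15.43, 16.49, 15.18, 17.5 and 16.92 FPKM with PBS and at 17.12, 16.53, 16.74, 16.03 and 15.59 FPKM with Ceapin-A7. All Ceapin-A7 values lay within the range of the PBS values (log2 fold change 0.0101, interval −0.0933 to 0.114, adjusted p = 0.949 from limma).

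*Atf6b*, which encodes the second ATF6 protein, was the more abundant of the 2 on the same per-length scale. It was at 37.43, 42.48, 43.5, 31.65 and 39.17 FPKM in *Atf6*+/+ OIR and at 35.85, 31.57, 30.57, 29.28 and 44.45 FPKM in *Atf6*-/- OIR. Of the *Atf6*-/- libraries, 4 were below 4 of the *Atf6*+/+ libraries, and the lowest *Atf6*+/+ value and the highest *Atf6*-/- value came from the pair that stood apart. The log2 fold change was −0.168 (interval −0.458 to 0.123, adjusted p = 0.549 from limma). With PBS it was at 41.17, 40.67, 40.37, 42.16 and 41.28 FPKM, the tightest of all groups of the 10 genes (coefficient of variation 1.66%). With Ceapin-A7 it was at 38.96, 37.88, 40.89, 42.32 and 37.33 FPKM, 3 of them below every PBS library, and the groups overlapped (log2 fold change −0.0603, interval −0.142 to 0.0219, adjusted p = 0.552 from limma). Within a library, *Atf6* was at 0.389 ± 0.0469 of the *Atf6b* level in *Atf6*+/+ OIR, 0.456 ± 0.103 in *Atf6*-/- OIR, 0.396 ± 0.0193 with PBS and 0.416 ± 0.0245 with Ceapin-A7 (SD, n = 5 each).

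**Figure D1:**
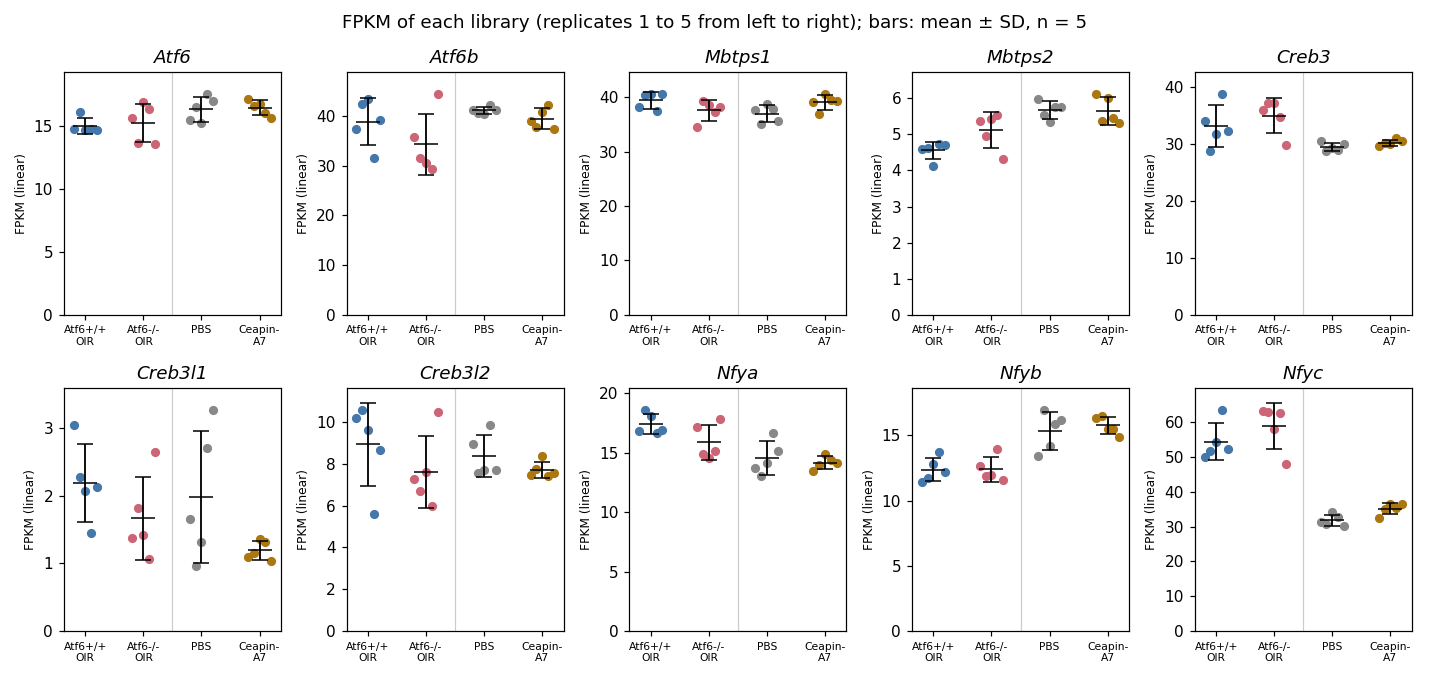
FPKM (linear axis from 0) of the 10 genes in each of the 20 libraries, as points for replicates 1 to 5 from left to right within a group, with the mean and SD (n = 5) in black. Most groups overlap, while *Nfyc* lies between 47.84 and 63.39 FPKM in the OIR libraries and between 30.06 and 36.52 FPKM in the P30 libraries.

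The 2 proteases differed several-fold in level. *Mbtps1*, whose site-1 protease makes the first cut, ranged from 34.49 to 40.65 FPKM over all 20 libraries, the narrowest spread of group means of the 10 genes, at 1.07 from the lowest to the highest. *Mbtps2*, whose site-2 protease cuts within the membrane, was at 4.6, 4.63, 4.12, 4.72 and 4.7 FPKM in *Atf6*+/+ OIR and at 5.37, 4.95, 5.43, 5.53 and 4.33 FPKM in *Atf6*-/- OIR. *Atf6*-/- replicates 1 to 4 were above every *Atf6*+/+ library, and replicate 5 was below all but 1 of them. Its log2 fold change was 0.18 (interval 0.00625 to 0.353, unadjusted p = 0.0434, adjusted p = 0.381 from limma), so it did not pass over all genes. At P30 *Mbtps2* was at 5.99, 5.53, 5.34, 5.77 and 5.75 FPKM with PBS and at 6.12, 5.37, 6.01, 5.45 and 5.31 FPKM with Ceapin-A7, which overlapped. *Mbtps1* was at a log2 fold change of −0.0523 in OIR (adjusted p = 0.667) and 0.0803 after Ceapin-A7 (interval −0.00637 to 0.167, adjusted p = 0.492 from limma). The level of *Mbtps1* over that of *Mbtps2* was 8.7 ± 0.719 in *Atf6*+/+ OIR and 7.42 ± 0.982 in *Atf6*-/- OIR, and 6.54 ± 0.424 with PBS and 6.94 ± 0.409 with Ceapin-A7 (SD, n = 5 each).

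Of the CREB3 factors, which are cut like ATF6 and act on secretory pathway genes, *Creb3* was the most abundant, with group means from 29.46 to 34.94 FPKM. *Creb3l2* had group means from 7.61 to 8.936 FPKM. *Creb3l1*, known for its role in collagen secretion, was the lowest of the 10 genes and the most variable. It was at 3.04, 2.27, 2.07, 1.44 and 2.12 FPKM in *Atf6*+/+ OIR and at 1.37, 1.81, 1.42, 1.07 and 2.65 FPKM in *Atf6*-/- OIR. The groups overlapped, again through *Atf6*+/+ replicate 4 and *Atf6*-/- replicate 5 (log2 fold change −0.385, interval −0.913 to 0.144, adjusted p = 0.474 from limma). With PBS it was at 1.66, 0.96, 1.31, 2.7 and 3.26 FPKM and with Ceapin-A7 at 1.1, 1.15, 1.36, 1.32 and 1.04 FPKM. The 2 highest PBS values were those of replicates 4 and 5, the libraries with the lowest rod marker sums. The log2 fold change of −0.56 (interval −1.14 to 0.0223, adjusted p = 0.484 from limma) became −0.116 (unadjusted p = 0.503) without those 2 libraries. Summed FPKM of 10 mural cell and fibroblast markers, cells that make collagen, lay between 103.8 and 153.5 in *Atf6*+/+ OIR and between 82.7 and 107.6 in *Atf6*-/- OIR, with at most 1 of the 10 at 0 in a library. Most of these sums is *Rgs5*, with means of 83.16 and 65.22 FPKM in the same order. The collagen genes *Col1a1* (1.476 and 0.888 FPKM) and *Col3a1* (3.704 and 2.386 FPKM) weigh little in them. Of 9 such markers tested in OIR, 6 were lower with an unadjusted p up to 0.05, where 5.81% of all genes were, and 8 without the 2 libraries (20.4%), and their part in the *Creb3l1* values was not tested. In PBS replicates 4 and 5 these markers summed to 31.83 and 38.51, within the range of the other 3 PBS libraries, and *Rgs5* had a mean of 17.62 FPKM with PBS.

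NF-Y, the CCAAT-binding trimer, was expressed with unequal subunit levels. *Nfya*, the DNA-contacting subunit, had group means of 17.43 and 15.9 FPKM in *Atf6*+/+ and *Atf6*-/- OIR and 14.56 and 14.18 FPKM with PBS and Ceapin-A7. *Nfyb* had 12.37 and 12.4 FPKM in OIR and 15.31 and 15.76 FPKM at P30, in the same order. *Nfyc* was the most abundant of the 10 genes in OIR. It was at 50.07, 51.59, 54.38, 63.39 and 52.23 FPKM in *Atf6*+/+ OIR and at 63.3, 62.92, 57.92, 62.56 and 47.84 FPKM in *Atf6*-/- OIR. The highest *Atf6*+/+ and the lowest *Atf6*-/- value came from the pair of libraries that stood apart (log2 fold change 0.132, interval −0.0311 to 0.294, adjusted p = 0.441 from limma). At P30 *Nfyc* was at 31.4, 30.71, 34.03, 32.85 and 30.06 FPKM with PBS and at 32.58, 34.89, 36.52, 35.36 and 36.33 FPKM with Ceapin-A7. Of the Ceapin-A7 libraries, 4 were above every PBS library, and the log2 fold change was 0.144 (interval 0.0438 to 0.243, unadjusted p = 0.00882, adjusted p = 0.472 from limma). It was 0.116 (unadjusted p = 0.0356) without PBS replicates 4 and 5. The RefSeq annotation holds a pseudogene, *Nfyc-ps*, and how reads shared with it were assigned was not tested.

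In neither comparison did a gene of the family pass the test over all genes. In OIR, 0 of 10 had an adjusted p under 0.05, where 0.0318% of the 15704 genes tested did. At an unadjusted p up to 0.05, 1 of 10 was found (*Mbtps2*), where 12.7% of all genes were, and the count was 5 without *Atf6*-/- replicate 5 (25.5% of all genes), 3 without *Atf6*+/+ replicate 4 (24% of all genes) and 0 without *Atf6*+/+ replicate 1, 2 or 3 or *Atf6*-/- replicate 1, 3 or 4. After Ceapin-A7, 0 of 10 had an adjusted p under 0.05, as did 0% of the 15408 genes tested, and at an unadjusted p up to 0.05 1 of 10 was found (*Nfyc*, higher), where 10.4% of all genes (1595) were, 5.04% as higher. That count was 3 without PBS replicate 3 (14.4% of all genes), and 2 without PBS replicate 2 (16.4%) or without Ceapin-A7 replicate 2 (7.39%). The 2 groups of libraries overlapped for all 10 genes in both comparisons, whereas 1.52% of all genes in OIR and 1.34% after Ceapin-A7 had groups that did not. The median log2 fold change over the 10 genes was −0.016 in OIR and 0.0015 after Ceapin-A7, beside medians of 0.0028 and 0.00089 over all genes. Both shares lie near the background, so the counts are not a result about these genes. The intervals of *Creb3l1* allow changes from −46.9% to 10.5% in OIR and from −54.7% to 1.56% after Ceapin-A7, while those of *Atf6b* after Ceapin-A7 span only −9.4% to 1.53%.

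**Figure D2:**
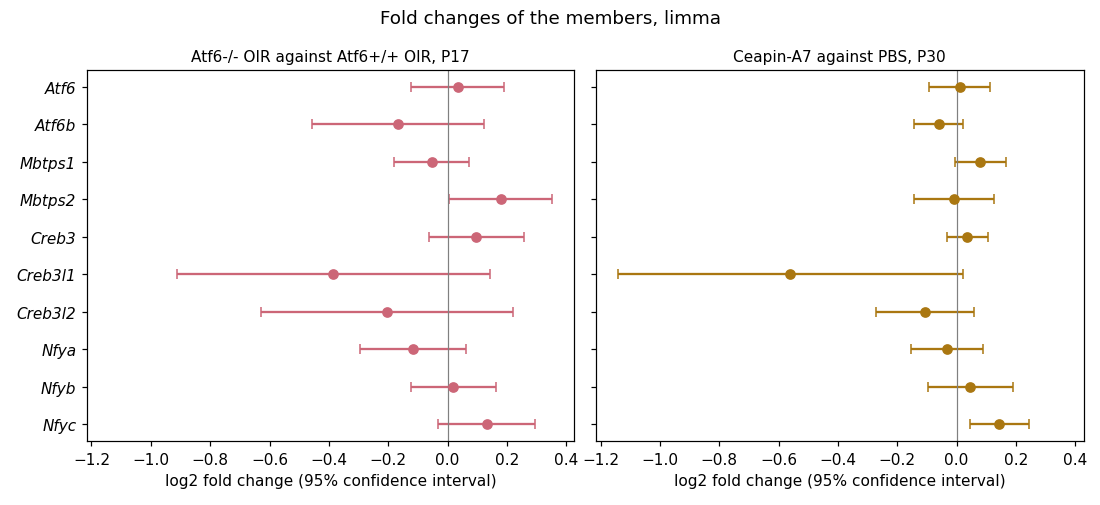
Log2 fold changes (x axis) of the 10 genes from limma with 95% confidence intervals, *Atf6*-/- against *Atf6*+/+ OIR on the left and Ceapin-A7 against PBS on the right, 5 libraries a group. The interval leaves out 0 only for *Mbtps2* on the left (0.00625 to 0.353) and *Nfyc* on the right (0.0438 to 0.243), and *Creb3l1* has the widest interval in both.

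The effects of the allele and of the compound were also compared with each other, although they were measured at different ages and with and without OIR. No gene of the family had a difference of effects with an adjusted p under 0.05 (0 of 10), where 0.032% of 15628 genes did, and at an unadjusted p up to 0.05 there were 0 of 10 and 9.19% of all genes, 5.39% with a positive difference. This count was 0 to 2 without 1 library, highest without *Atf6*-/- replicate 5 (16.7% of all genes), and 5 with array weights (24.3%). Without *Atf6*+/+ replicate 4, *Atf6*-/- replicate 5 and PBS replicates 4 and 5 together it was 7 (28.3% of all genes), and *Atf6b* (−0.292, adjusted p = 0.0442) and *Creb3l2* (−0.421, adjusted p = 0.0303 from limma) then passed the test. The OIR libraries left out are those closest to the other group, so p-values of this fit are too small by construction. The smallest p belonged to the proteases. *Mbtps1* had a difference of −0.131 (interval −0.264 to 0.00257, unadjusted p = 0.0542, adjusted p = 0.544 from limma) and *Mbtps2* of 0.189 (interval −0.0125 to 0.39, unadjusted p = 0.0645, adjusted p = 0.563 from limma), both on the log2 scale and as OIR minus Ceapin-A7.

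Ratios within a library do not depend on how libraries are scaled, and 4 were tested in each experiment, 8 tests in all. They were not corrected for GC content, with which the library deviations correlated in OIR. Transcripts of *Atf6* and *Atf6b* have 46% and 60.3% GC, and those of *Mbtps1* and *Mbtps2* 50.2% and 40%. *Mbtps1* to *Mbtps2* in OIR had the smallest p (log2 difference −0.236, exact two-sided permutation test p = 0.0714, adjusted p = 0.35). The other 7 had exact permutation p-values from 0.143 to 0.405 and adjusted p-values from 0.35 to 0.405, and 5 against 5 libraries can reach 0.00794. Without *Atf6*-/- replicate 5, the exact permutation p was 0.0317 for *Atf6* to *Atf6b*, 0.0159 for *Mbtps1* to *Mbtps2* and 0.0238 for *Nfyc* to *Nfyb* in OIR, unadjusted, with log2 differences of 0.339, −0.302 and 0.161. This library lay with the *Atf6*+/+ libraries on the first principal component, so these p-values are too small by construction. They are also the smallest of the fits that left out each library in turn.

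The largest contrast in the family lay between the experiments. *Nfyc* was at 54.33 ± 5.3 FPKM in *Atf6*+/+ OIR at P17 and at 31.81 ± 1.62 FPKM with PBS at P30 (SD, n = 5 each), 1.71 times as high, and the groups did not overlap. *Mbtps2* was 1.25 times as high with PBS as in *Atf6*+/+ OIR, also without overlap, and the other 8 genes overlapped. Among all genes, 40.4% did not overlap between these groups, so 2 of 10 is not a high share. The level of *Nfyc* over that of *Nfyb* was 4.39 ± 0.152 in *Atf6*+/+ OIR and 4.76 ± 0.458 in *Atf6*-/- OIR, and 2.1 ± 0.269 with PBS and 2.24 ± 0.181 with Ceapin-A7 (SD, n = 5 each). *Nfya* was above *Nfyb* in all OIR libraries (ratios 1.08 to 1.59) and at 0.773 to 1.05 of it at P30. Age, oxygen history, injection and separately deposited tables cannot be told apart here, and no test was made. In the order of the 4 group means, neighbouring groups overlapped for every gene at every step but 1, *Nfyc* between *Atf6*+/+ OIR and Ceapin-A7.

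**Figure D3:**
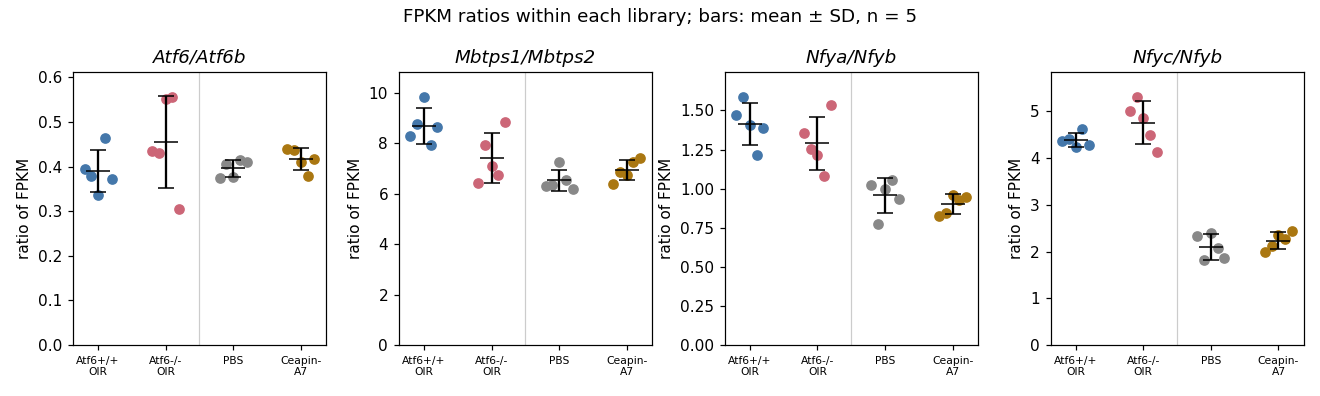
Ratios of FPKM within each library (y axis, linear from 0) for 4 pairs of genes, points for replicates 1 to 5 and the mean and SD (n = 5) in black. The *Nfyc* to *Nfyb* ratio is 4.13 or higher in every OIR library and 2.44 or lower in every P30 library, and the groups within each experiment overlap in all 4 panels.

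In OIR, several genes of the family moved together from library to library, along the axis on which *Atf6*+/+ replicate 4 and *Atf6*-/- replicate 5 were exchanged. With each group centred on its own mean, *Atf6b* correlated with *Nfya* (Pearson r = 0.924, Spearman rho = 0.855) and with *Creb3l2* (r = 0.889, rho = 0.83) over the 10 OIR libraries. *Creb3l2* ran against *Nfyc* (r = −0.912, rho = −0.903), as did *Creb3l1* (r = −0.858, rho = −0.83). These are descriptions, since all genes of a library share its RNA and its composition. *Atf6b*, *Creb3l1*, *Creb3l2* and *Nfya* were each lowest of their *Atf6*+/+ group in replicate 4 and highest of their *Atf6*-/- group in replicate 5, and *Nfyc* was the reverse. *Atf6* was not part of this pattern (r = −0.0769 with *Atf6b*). Spearman correlations of the library deviations with transcript GC content were between 0.332 and 0.39 in 4 *Atf6*+/+ libraries and −0.314 in replicate 4. They were between −0.554 and −0.156 in 4 *Atf6*-/- libraries and 0.416 in replicate 5. The transcripts of *Atf6b* and *Creb3l1* have 60.3% and 59.5% GC, the highest of the 10 genes, and those of *Mbtps2* and *Nfyb* 40% and 42.6%, the lowest. *Creb3l2* and *Nfyc*, which ran against each other, have 49.7% and 49.8%.

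With both of these libraries left out, 6 of the 10 genes had an adjusted p under 0.05 from limma, among 3909 genes in all. The log2 fold change of *Atf6b* was then −0.367 (adjusted p = 0.00648), that of *Creb3l2* −0.511 (0.00421), of *Creb3l1* −0.724 (0.0135), of *Nfya* −0.205 (0.0474), of *Creb3* 0.18 (0.0481) and of *Nfyc* 0.231 (0.00754), with adjusted p from limma in parentheses. *Atf6* stayed at 0.0367 (adjusted p = 0.75). At an unadjusted p up to 0.05, 38.8% of all genes were found in this fit, and the libraries left out are those closest to the other group, so its p-values are too small by construction. This holds for every p-value from this fit that is given below. After a correction for GC content with all 10 libraries, none of the 10 genes had an unadjusted p up to 0.05, where 10.4% of all genes did, and the log2 fold change of *Atf6b* was −0.0256 and that of *Mbtps2* 0.0612. *Creb3l1* was then at −0.251. *Creb3l2* was at −0.207, *Nfya* at −0.103, *Nfyc* at 0.128 and *Creb3* at 0.153, beside −0.203, −0.117, 0.132 and 0.0973 without the correction. The part of tissue makeup in these values was not tested.

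**Figure D4:**
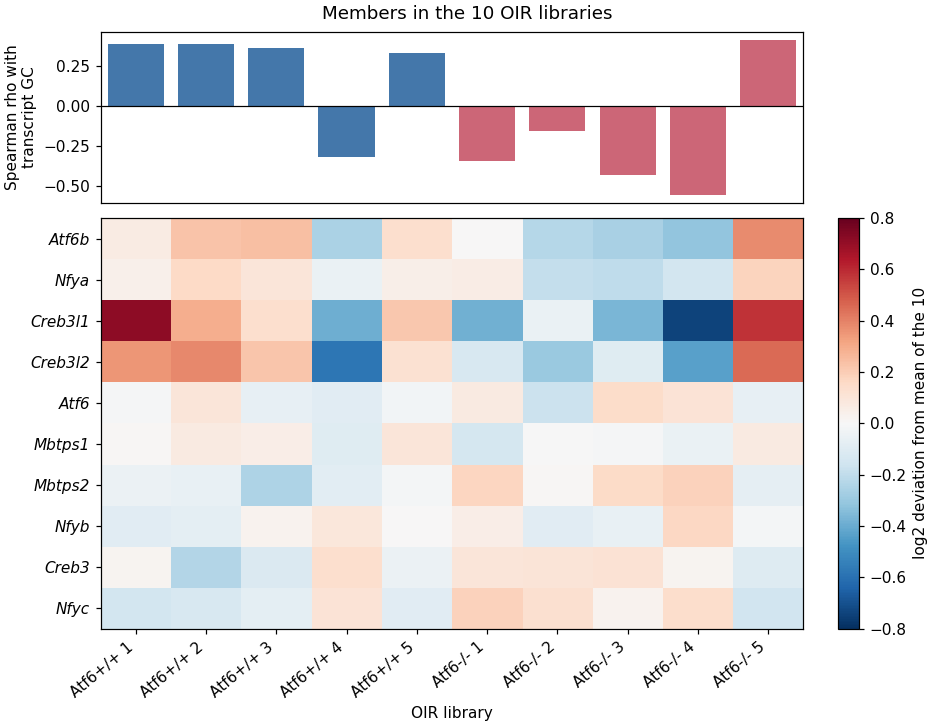
Upper panel, Spearman correlation of each OIR library's log2 deviations with transcript GC content across genes (blue *Atf6*+/+, red *Atf6*-/-). Lower panel, log2 deviation of the 10 genes (rows) from their mean over the 10 OIR libraries (columns), in colour from −0.8 to 0.8. *Atf6*+/+ replicate 4 has the colours of the *Atf6*-/- libraries in *Atf6b*, *Creb3l1* and *Creb3l2*, and *Atf6*-/- replicate 5 those of the *Atf6*+/+ libraries.

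The RNA of genes downstream of ATF6 was read from 18 known targets. In OIR 13 of 18 were lower and 5 higher in *Atf6*-/-, with a median log2 fold change of −0.15 beside 0.0028 over all genes, and none had an adjusted p under 0.05. At an unadjusted p up to 0.05, 2 were lower and 0 higher, where 5.81% of all genes were lower. The number lower was 5 on FPKM as deposited (8.43% of all genes), 7 with TPM (8.09%), 7 with quantile normalization (5.32%), 7 with array weights (19.2%), 5 in the fit of all 20 libraries (8.08%) and 4 with the GC correction (4.81%). *Derl3*, which draws misfolded proteins out of the ER, was at 2.16, 1.86, 1.92, 1.79 and 1.55 FPKM in *Atf6*+/+ OIR and at 1.03, 1.02, 1.1, 0.92 and 1.36 FPKM in *Atf6*-/- OIR. The 2 groups did not overlap, with or without the libraries that stood apart, and the log2 fold change was −0.708 (SE 0.132, unadjusted p = 0.000166, adjusted p = 0.163 from limma). *Sdf2l1*, a partner of ER chaperones, was at 5.3, 5.8, 7.13, 6.11 and 3.79 FPKM against 4.39, 4.13, 3.28, 3.26 and 4.85 FPKM, overlapping through *Atf6*+/+ replicate 5 (log2 fold change −0.459, unadjusted p = 0.0161). *Hsp90b1*, the chaperone GRP94, was at 193.1 ± 30.2 FPKM against 167 ± 9.97 FPKM (SD, n = 5 each, log2 fold change −0.18) and *Hspa5*, the chaperone BiP that holds ATF6 in the ER, at 134.2 ± 21.7 against 116.8 ± 4.27 FPKM (log2 fold change −0.168). *Dnajb11*, a co-chaperone of BiP, was at 36.78 ± 3.8 against 32.24 ± 2.84 FPKM (SD, n = 5 each, log2 fold change −0.171). The 5 with a log2 fold change above 0 were *Canx*, *Pdia4*, *Manf*, *Dnajc3* and *Herpud1*, from 0.00382 to 0.119. Without the 2 libraries that stood apart, 13 of 18 were lower, and 7 of them (38.9%) had an unadjusted p up to 0.05, where 20.4% of all genes were lower and 18.4% higher, while 2 of 18 targets were higher. The count of lower targets was 8 without *Atf6*-/- replicate 5 alone (13.7% of all genes) and 6 without *Atf6*+/+ replicate 5 (5.22%). It was 4 without *Atf6*+/+ replicate 4 (12.8%), without *Atf6*+/+ replicate 1 (3.64%) and without *Atf6*-/- replicate 1 (3.79%). Without the pair *Hsp90b1* was at −0.102, and with the GC correction at −0.28. *Syvn1*, at −0.184 with all libraries, was at −0.381 and −0.0839 in the same order.

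The upstream 250 bases of the *Derl3* promoter are printed because this gene showed the clearest difference in the list. They lie at chr10:75893148-75893397 of GRCm38.p6 on the plus strand (RefSeq), with 5 CCAAT motifs, here as ATTGG on the other strand, and the CCACG end of the ERSE, here as CGTGG, in capitals.
*Derl3*: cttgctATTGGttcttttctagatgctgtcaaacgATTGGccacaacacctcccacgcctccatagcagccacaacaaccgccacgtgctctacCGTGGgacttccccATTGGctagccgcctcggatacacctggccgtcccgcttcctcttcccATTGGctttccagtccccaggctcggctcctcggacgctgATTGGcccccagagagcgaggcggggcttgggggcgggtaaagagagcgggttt
Each of the target genes with an ERSE has at least 2 CCAAT motifs in its window. In OIR the 9 targets with an ERSE had a median log2 fold change of −0.17, 7 of 9 lower, and the other 9, of which *Hyou1* and *Manf* had no window, a median of −0.066, 6 of 9 lower. After Ceapin-A7 the medians were −0.083 and −0.077, with 9 of 9 lower in each. The difference between these groups of genes was not tested, and a match is a description of letters, not a binding site.

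After Ceapin-A7, 18 of 18 targets were lower in value than with PBS, with a median log2 fold change of −0.08 beside 0.00089 over all genes, and none had an adjusted p under 0.05. At an unadjusted p up to 0.05, 2 were lower, where 5.31% of all genes were. That count was 1 on FPKM as deposited (4.25% of all genes), 0 with the replicate block (5%), 0 in the fit of all 20 libraries (4.38%), and 1 without PBS replicate 5 (3.74%) or without Ceapin-A7 replicate 2 (3.68%), 4 (4.3%) or 5 (3.85%). *Pdia6*, a disulfide isomerase, was at 59.26, 53.78, 50.27, 56.59 and 59.23 FPKM with PBS and at 48.08, 49.74, 53.37, 53.17 and 50.08 FPKM with Ceapin-A7 (log2 fold change −0.132, unadjusted p = 0.0176). *Sel1l*, the adaptor of the ER degradation ligase, was at 24.96, 24.75, 24.91, 26.42 and 28.82 FPKM against 24.21, 23.87, 24.67, 23.93 and 24.3 FPKM, without overlap (log2 fold change −0.0992, unadjusted p = 0.0298). *Syvn1*, that ligase, was at 23.3 ± 2.72 FPKM against 21.14 ± 1.16 FPKM (SD, n = 5 each, log2 fold change −0.133). The highest PBS values of *Hspa5*, 138.04 and 161.86 FPKM, were those of replicates 4 and 5, against 106.39 to 110.2 FPKM in the other 3. Without these 2 libraries, 13 of 18 targets were lower and none had an unadjusted p up to 0.05, where 2.39% of all genes were lower. The log2 fold change was then −0.0568 for *Sel1l*, −0.0634 for *Syvn1* and 0.0639 for *Hspa5*, which thus changed sign. No target had a difference of effects between the experiments at an unadjusted p up to 0.05, where 9.19% of all genes did. Without the 4 libraries that stood apart, 2 targets had a positive and 3 a negative difference at that p, where 13.5% and 14.8% of all genes did.

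**Figure D5:**
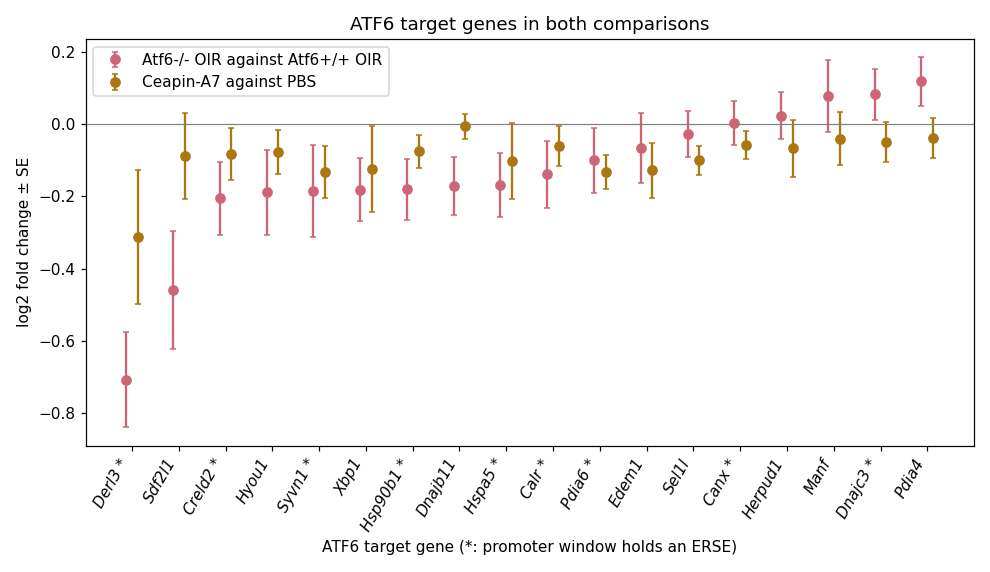
Log2 fold changes (y axis) of the 18 ATF6 targets with their SE, ordered by the OIR value, *Atf6*-/- against *Atf6*+/+ OIR in red and Ceapin-A7 against PBS in ochre, 5 libraries a group, an asterisk marking genes whose promoter window holds an ERSE. *Derl3* is lowest in both, at −0.708 and −0.312, and all 18 ochre points lie below 0.

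Genes that steer the activation of ATF6 were described by a list of 6. In OIR none had an unadjusted p up to 0.05, and the smallest belonged to *Nucb1*, which encodes a protein that limits the cleavage of ATF6 (log2 fold change −0.308, unadjusted p = 0.0635, adjusted p = 0.411 from limma). *Wfs1*, whose product wolframin restrains ATF6, had −0.298 and *Hspa5* −0.168. Without the 2 OIR libraries, *Nucb1* was at −0.538 (adjusted p = 0.00209) and *Wfs1* at −0.516 (adjusted p = 0.00272 from limma). In the same fit *Abcd3* was higher, at 0.262 (adjusted p = 0.01), as was *Txndc12*, at 0.16 (adjusted p = 0.0438 from limma). Thus 2 of 6 were lower and 2 higher at an unadjusted p up to 0.05, where 20.4% and 18.4% of all genes were, p-values of that fit being too small by construction. With the GC correction *Wfs1* was at −0.184. After Ceapin-A7, *Wfs1* was at 24.91 ± 5.64 FPKM with PBS and 19.86 ± 2.42 FPKM with the compound (SD, n = 5 each, log2 fold change −0.306, unadjusted p = 0.0353, adjusted p = 0.472 from limma), and −0.186 without PBS replicates 4 and 5. *Pdia5*, a disulfide isomerase that prepares ATF6 for export, had a log2 fold change of 0.145 (unadjusted p = 0.07), and 0.0496 without these 2 libraries. Of the 2 ERSE cofactors, *Yy1* was at 19.39, 18.6, 20.14, 20.83 and 21.41 FPKM with PBS and 18.19, 17.88, 18.54, 19.3 and 18.26 FPKM with Ceapin-A7 (log2 fold change −0.121, unadjusted p = 0.0091, adjusted p = 0.472 from limma). That is 1 of 2 lower at an unadjusted p up to 0.05, where 5.31% of all genes were. Without PBS replicates 4 and 5, which had its highest values, *Yy1* was at −0.0883 (unadjusted p = 0.052 from limma). *Yy1* in OIR had −0.0948, and *Gtf2i*, which encodes TFII-I, −0.155 in OIR and −0.00164 after Ceapin-A7, none with an adjusted p under 0.05. In OIR without the 2 libraries they were at −0.24 (adjusted p = 0.0117) and −0.334 (adjusted p = 0.00286 from limma), again with p-values too small by construction.

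The site-1 and site-2 proteases also cut other proteins, and a list of 9 genes of these other pathways was read. Not all of the 9 encode proteins that are cut, *Scap*, *Insig1* and *Insig2* being pathway genes. In OIR 2 of 9 were lower at an unadjusted p up to 0.05 and none higher, where 5.81% of all genes were lower and 6.94% higher. With the GC correction the count was 0 (4.81% of all genes lower). *Srebf2*, the sterol-regulated factor SREBP2, was at 29.74, 30.72, 29.11, 21.68 and 27.62 FPKM in *Atf6*+/+ and at 22.14, 17.56, 20.19, 18.54 and 30.1 FPKM in *Atf6*-/- OIR (log2 fold change −0.353, unadjusted p = 0.0443, adjusted p = 0.383 from limma), and the 2 libraries that cross are again *Atf6*+/+ replicate 4 and *Atf6*-/- replicate 5. Without them *Srebf2* was at −0.594 (adjusted p = 0.00107 from limma, too small by construction in this fit). *Creb3l3* was under 1.1 FPKM in every OIR library (log2 fold change −0.431, unadjusted p = 0.0347, adjusted p = 0.373 from limma), and *Creb3l4* had 0.349. After Ceapin-A7 none of the 9 had an unadjusted p up to 0.05, and the nearest were *Scap* at −0.0549, *Gnptab* at 0.0805 and *Insig2* at −0.0382.

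The other arms of the UPR were read from 5 genes, of which 4 were lower in value in OIR and 5 after Ceapin-A7 (2 without PBS replicates 4 and 5), none with an adjusted p under 0.05. At an unadjusted p up to 0.05 there was 1 lower in each, *Ddit3* in OIR (5.81% of all genes lower) and *Ern1* after Ceapin-A7 (5.31%). *Ddit3*, the factor CHOP, was at 69.64, 54.82, 61.31, 69.07 and 58.43 FPKM in *Atf6*+/+ OIR and at 49.87, 54.39, 52.7, 45.84 and 52.14 FPKM in *Atf6*-/- OIR, without overlap (log2 fold change −0.275, unadjusted p = 0.00372, adjusted p = 0.358 from limma). *Xbp1*, also counted among the targets, had −0.181, and *Eif2ak3*, the sensor PERK, −0.114. Without the 2 OIR libraries *Ddit3* was at −0.278 (adjusted p = 0.0292) and *Eif2ak3* at −0.19 (adjusted p = 0.0334 from limma), with p-values too small by construction. After Ceapin-A7, *Ern1*, the sensor IRE1, was at 9.55, 8.95, 8.82, 11.06 and 8.81 FPKM with PBS and at 8.77, 8.24, 8.38, 8.53 and 8.36 FPKM with the compound, without overlap (log2 fold change −0.151, unadjusted p = 0.0324, adjusted p = 0.472 from limma). *Atf4* was at 293.68 and 355.93 FPKM in PBS replicates 4 and 5 and between 197.77 and 225.83 FPKM in the other 8 P30 libraries. *Ddit3* was highest in the same 2 libraries, at 73 and 87.26 FPKM. The log2 fold changes of *Atf4* and *Ddit3* after Ceapin-A7 were −0.23 and −0.333, neither with an unadjusted p up to 0.05, and 0.0109 and 0.0219 without these 2 libraries.

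Of 5 target genes of the CREB3 factors, 2 were higher and 1 lower in OIR at an unadjusted p up to 0.05, where 6.94% and 5.81% of all genes were. *Arf4*, a Golgi traffic gene, was at 52.54, 50.94, 55.03, 56.66 and 49.27 FPKM in *Atf6*+/+ and at 62.75, 64.99, 57.38, 60.96 and 53.08 FPKM in *Atf6*-/- OIR (log2 fold change 0.194, unadjusted p = 0.00443, adjusted p = 0.358 from limma). Of these *Atf6*-/- libraries, 4 lay above every *Atf6*+/+ library. *Sec23a*, a coat protein of ER export vesicles, had 0.194 (unadjusted p = 0.0204, adjusted p = 0.362 from limma). *Col1a1*, a collagen gene, was at 1.91, 1.52, 1.28, 0.98 and 1.69 FPKM against 0.36, 0.6, 0.67, 0.52 and 2.29 FPKM (log2 fold change −0.896, unadjusted p = 0.0362, adjusted p = 0.374 from limma), and only *Atf6*-/- replicate 5 reached the *Atf6*+/+ range. Without *Atf6*+/+ replicate 4 and *Atf6*-/- replicate 5, *Arf4* was at 0.23 (adjusted p = 0.0112), *Sec23a* at 0.268 (adjusted p = 0.0113) and *Col1a1* at −1.44 (adjusted p = 0.00106 from limma), with p-values too small by construction. With the GC correction *Arf4* was at 0.11 (unadjusted p = 0.068), *Sec23a* at 0.0974 (unadjusted p = 0.0672) and *Col1a1* at −0.77 (unadjusted p = 0.0394 from limma). The counts at an unadjusted p up to 0.05 were then 0 higher and 1 lower, where 5.63% and 4.81% of all genes were. *Col1a1* is also one of the mural and fibroblast markers described with *Creb3l1*. After Ceapin-A7 none of the 5 had an unadjusted p up to 0.05, the nearest being *Sec24d* at −0.121, *Col1a1* at 0.315 and *Herpud1* at −0.0669.

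The genes whose levels varied most like *Atf6* and *Atf6b* were sought over the 20 libraries, each group centred on its own mean, among 12996 other genes with a mean of at least 1 FPKM. For *Atf6* these were *Sp1* (Pearson r = 0.905, Spearman rho = 0.89), *Usp31* (r = 0.828, rho = 0.805) and *Rasgef1a* (r = 0.816, rho = 0.773). For *Atf6b* they were *Ccdc97* (r = 0.971, rho = 0.935), *Cdk5r2* (r = 0.957, rho = 0.835) and *Phc2* (r = 0.954, rho = 0.881). No gene is on both lists.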

How the data were processed

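The 20 RNA-Seq libraries came from whole retinas, and the sample labels gave their groups. The authors made stranded mRNA libraries (DNBSEQ), used HISAT2, version 2.0.4, against the GRCm39 build for the paired-end reads and RSEM, version 1.2.18, for the FPKM that they deposited for each gene. The submitters' processing notes also name DESeq2, version 1.4.5. RSEM shares a fragment that fits several genes between them, which can move values of genes with close copies. FPKM are not counts, so no count test was made.

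A median-of-ratios factor (0.946 to 1.04) scaled each library, and log2(FPKM + 0.1) of genes with a mean FPKM above 0.1 was fitted in limma 3.58.1 under R 4.3.3, with a trended eBayes step, each experiment on its own 10 libraries and the difference of effects on all 20. All fold changes have this scale, which makes those of low genes too small. Benjamini-Hochberg adjustment ran over all genes tested, or over the 8 ratio tests, which were exact two-sided permutation tests. The fit was tested on simulated data.

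The members, the 6 pathway lists and 7 marker lists were chosen with earlier results of these data known. The text names all members and *Gm29733*, up to 3 genes with the smallest p of each pathway list in each experiment, and the 3 genes most like *Atf6* and *Atf6b*. Further genes of these lists, among them *Hsp90b1*, *Hspa5* as a target and the targets with a fold change above 0, were chosen after their values were seen. GC content came from GENCODE M21 transcripts matched by symbol (97% of genes in OIR, 97.1% at P30). Promoters were RefSeq windows of GRCm38.p6, matched by gene number. Coordinates in other builds and protein sequences were not used here.

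Alternatives were pseudocounts of 1 and 0.01, 3 other filters, unscaled FPKM, TPM, quantile normalization, array weights, limma with no trend, a GC correction (lowess span 0.3), a fit of all 20 libraries, a replicate block and leaving out each library. Leaving out 2 libraries of an experiment together, or all 4 for the difference of effects, was added after seeing the data.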

Additional observations from a re-analysis of the deposited data

Results flagged for a closer look

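In the groups of 5, Dixon's test compared the gap of the highest or lowest library to its neighbour with the group's range, for the 10 genes and the 4 ratios in each group, 56 groups in all. It marked 2, and chance marks about 1 in 20 groups. *Atf6* was at 16.05 FPKM in *Atf6*+/+ OIR replicate 2, where the other 4 libraries lay between 14.61 and 14.75 FPKM. *Mbtps2* was at 4.12 FPKM in *Atf6*+/+ OIR replicate 3, where the other 4 lay between 4.6 and 4.72 FPKM. Neither library is one of the pair that stood apart in OIR.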

How the results depend on the processing

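Of 500 alternative values of the members' fold changes, 473 kept their direction and their side of the threshold, 18 changed sign and 9 passed an adjusted p under 0.05. In OIR, where 5 genes and 0 members were called, array weights called 2769 genes and 3 members, and leaving out *Atf6*+/+ replicate 4 and *Atf6*-/- replicate 5 together called 3909 genes and 6 members. A fit of all 20 libraries called 11 genes in OIR and 1 after Ceapin-A7, where 0 were called. Leaving out 1 library at a time called 5 to 9 genes in OIR, 9 without *Atf6*-/- replicate 5, and 0 after Ceapin-A7, and 0 members in each. The difference of effects called 0 members, and 2 without the 4 libraries that stood apart. Without 1 library at a time, the log2 ratio differences in OIR ranged from 0.123 to 0.339 for *Atf6* to *Atf6b*, −0.302 to −0.186 for *Mbtps1* to *Mbtps2* and 0.0703 to 0.161 for *Nfyc* to *Nfyb*. After Ceapin-A7 that of *Mbtps1* to *Mbtps2* ranged from 0.0634 to 0.126, and its unadjusted exact permutation p was 0.0317 without PBS replicate 3. With both OIR libraries left out the OIR differences were, in the same order, 0.405, −0.334, 0.18 and, for *Nfya* to *Nfyb*, −0.257, each at an unadjusted exact permutation p of 0.0286, the smallest that 4 against 4 libraries allow. As these libraries are those closest to the other group, this p is too small by construction. The cause was not tested.

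Changes of sign were confined to fold changes under 0.08 on the log2 scale. In OIR, *Nfyb* was −0.00387 with TPM, −0.0743 with the GC correction (with or without the replicate block) and as low as −0.0181 and as high as 0.0443 without 1 library, and *Atf6* was −0.0238 with the GC correction, with or without the block. After Ceapin-A7, *Atf6* was −0.0284 and *Creb3* −0.00303 with TPM, *Mbtps2* was 0.0061 with quantile normalization, and *Nfya* was 0.0379 without PBS replicates 4 and 5. Without 1 library, *Atf6* ranged from −0.0115 to 0.0301, *Mbtps2* from −0.0399 to 0.0157 and *Nfya* from −0.0623 to 0.0121.

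Whether the replicate numbers shared by the groups pair the samples is not known. Deviations of same-numbered libraries correlated between −0.258 and 0.21 in OIR and between −0.217 and 0.31 after injection, and only number 1 of the injected groups correlated best with its own number. So few correlations cannot decide it. With the replicate block, 5 genes were called in OIR and 0 after Ceapin-A7, and 0 members in each. FPKM to 2 decimals limit *Creb3l1* and other low genes, and fragment counts were not used here.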

Other observations

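Markers of cells outside the neural retina varied between libraries. Over 12 lens fibre genes, FPKM summed to between 9.88 and 527.8 in *Atf6*+/+ OIR, 6.11 and 10.24 in *Atf6*-/- OIR, 7.95 and 4611 with PBS and 79.67 and 8227 with Ceapin-A7, although the lens was removed according to the labels, and 9 of 11 tested in OIR were lower in *Atf6*-/- with an unadjusted limma p up to 0.05, where 5.81% of all genes were. After Ceapin-A7, 12 of 12 were higher in value, none with an unadjusted p up to 0.05. Over 11 pigment epithelium genes, the sums lay between 196.5 and 321.9 in *Atf6*+/+ OIR and between 262.9 and 500.6 in *Atf6*-/- OIR, and 5 of 10 tested were higher with an unadjusted limma p up to 0.05, none lower, where 6.94% of all genes were higher. They lay between 260.5 and 408.7 with PBS and between 289.7 and 472 with Ceapin-A7, of which *Rlbp1*, also a Muller glia gene, makes up 168.8 and 185.9 FPKM on average. With an unadjusted limma p up to 0.05, *Mlana* and *Pmel* were higher after Ceapin-A7, at log2 fold changes of 2.13 and 1.85, and *Ttr* and *Lrat* lower, at −0.861 and −0.882. That is 2 of 11 higher and 2 of 11 lower, where 5.04% and 5.31% of all genes were, and 1 higher and 5 lower without PBS replicates 4 and 5 (2.61% and 2.39%).

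Over 10 endothelial genes, the sums were 115.1 to 185.7 FPKM in *Atf6*+/+ OIR and 109 to 158.4 FPKM in *Atf6*-/- OIR, with 9 of 10 genes lower in value. At an unadjusted limma p up to 0.05, 2 of them were lower, where 5.81% of all genes were. That count was 7 without the 2 libraries that stood apart (20.4% of all genes lower) and 1 with the GC correction (4.81%). Over 8 microglia and macrophage genes the sums were 94.7 to 151.1 and 83.09 to 113.9 FPKM, with 7 of 8 lower and 1 of them with an unadjusted limma p up to 0.05 (5.81% of all genes lower). Without the 2 libraries 3 of 8 were lower, 0 of them with such a p (20.4% of all genes lower), and 1 was higher with such a p (18.4%). The Muller glia markers, 7 genes, summed to between 2114 and 2433 FPKM in *Atf6*+/+ OIR and between 2349 and 2567 FPKM in *Atf6*-/- OIR. After Ceapin-A7, *Glul* and *Dkk3* were higher, at 0.847 and 0.309, and *Vim* lower, at −0.698, with an unadjusted limma p up to 0.05, which is 2 of 7 and 1 of 7, where 5.04% and 5.31% of all genes were. Without PBS replicates 4 and 5 they were at 0.279, 0.112 and −0.243, none with such a p, where 2.61% of all genes were higher and 2.39% lower. With all libraries, no gene of these lists had an adjusted p under 0.05. Their part in the values of the ATF6 family was not tested.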
